A study of Mus musculus with 2 samples.

Results

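The 10 genes described here encode proteins of the neuronal microtubule cytoskeleton and of the growth cone: Mapt, Map2, Map1b, Dcx, Stmn1, Stmn2, Stmn3, Stmn4, Gap43 and Dpysl3. They were picked by gene symbol, with earlier results of these data known. All 10 were found among the 45777 genes of the deposited expression table. Their levels were compared between 2 RNA-seq libraries of mouse teratomas, tumors in which transplanted pluripotent cells differentiate into mixed tissues. One library came from E14 cells, a mouse embryonic stem cell (ESC) line that was wild-type (WT) here, and the other from E14-Sox2TA/WT cells, E14 cells with the Sox2 T258A mutation on 1 allele, made with CRISPR/Cas9 and grown out from single sorted cells. Culture differed as well. The study describes E14 cells in serum with leukemia inhibitory factor. The mutant clones were grown out and normally kept with the inhibitor mix 2i added, which was removed before experiments. Both kinds of cells were inoculated subcutaneously with Matrigel into BALB/c-nu mice, 3 per group, and teratomas were harvested after 14 days. Neither the age of the mice nor the number of teratomas behind each library was given in the sources used here, and host cells can be present in both tumors. With 1 library per group there is no replicate check, and no p-value was computed.

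In the E14-Sox2TA/WT teratoma library, all 10 genes were lower than in the E14 library, by 2.52-fold for Stmn1 to 14.6-fold for Mapt. Their summed level was a TPM of 3881 in the E14 library against 1044 in the E14-Sox2TA/WT library, or 0.388% and 0.104% of all TPM. TPM is a read count scaled by transcript length and to the same total in each library, so that levels of different genes can be compared. In these bulk samples, fewer neurons and less RNA of these genes per neuron cannot be told apart.

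Microtubules give axons and dendrites their shape and carry transport along them. Structural microtubule-associated proteins such as tau, MAP2 and MAP1B bind along the polymer and stabilize it, doublecortin does so in migrating young neurons, and stathmins bind free tubulin and favor disassembly. At the tip of a growing axon, the growth cone, GAP-43 and the collapsin response mediator proteins (CRMPs) link guidance signals to the cytoskeleton.

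The 4 stathmins are paralogs, and so are Mapt and Map2, so their coding sequences are shown first to make clear how far reads of one can be told from reads of another. Between any pair of stathmins, 69.1% to 73.6% of aligned coding bases were identical. The longest run of identical bases was 43 nt, between Stmn1 and Stmn2. The most alike stretch of 60 coding bases that lies in a single exon of each stathmin is printed below, 5′ to 3′ on the coding strand, with capitals where a base differs from Stmn1. It lies on GRCm38 (mm10) in exon 4 of Stmn1 at chr4:134472858-134472917 (plus strand), in exon 4 of Stmn2 at chr3:8554846-8554905 (plus), in exon 4 of Stmn3 at chr2:181307294-181307353 (minus) and in exon 5 of Stmn4 at chr14:66357900-66357959 (plus). Stmn2 differed from Stmn1 at 4 of these 60 bases, Stmn4 at 9 and Stmn3 at 14.
Stmn1: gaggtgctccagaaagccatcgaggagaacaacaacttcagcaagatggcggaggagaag
Stmn2: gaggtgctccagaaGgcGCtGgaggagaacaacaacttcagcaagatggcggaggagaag
Stmn3: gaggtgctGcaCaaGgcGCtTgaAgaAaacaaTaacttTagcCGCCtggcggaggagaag
Stmn4: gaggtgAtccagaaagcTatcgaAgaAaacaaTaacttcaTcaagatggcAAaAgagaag

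Mapt and Map2 were identical at 66.0% of aligned coding bases, with a longest identical run of 11 nt. Their most alike stretch of 60 bases, with capitals where Map2 differs from Mapt, lies in exon 8 of Mapt at chr11:104310461-104310520 and in exon 12 of Map2 at chr1:66425455-66425514, both on the plus strand. It held 13 differences.
Mapt: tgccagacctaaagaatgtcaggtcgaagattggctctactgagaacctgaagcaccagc
Map2: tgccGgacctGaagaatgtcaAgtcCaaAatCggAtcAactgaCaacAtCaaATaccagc

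Across all annotated transcripts, no stathmin shared a stretch of 50 nt with another stathmin, and neither did Mapt with Map2. Among the 10 genes only Dcx and Stmn2 had any such stretch in common, with both strands searched. For Stmn1, 369 of 1956 stretches of 50 nt, or 18.9%, also occurred in transcripts of other genes, chiefly the processed pseudogene Gm11223, so its count is the least certain of the 10. For each of the other 9 genes, at most 0.893% of stretches were shared with another gene. The shared stretches of Map2 lie in Gm10558, which is annotated antisense to it, and without a stated strand setting reads of the pair cannot be told apart there. The 10 genes lie on 10 different chromosomes.

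Both libraries were sequenced to a similar depth, with 50529171 counted reads for E14 and 49030281 for E14-Sox2TA/WT. The libraries stood apart in several ways. Sox2 itself had a TPM of 246 and 130, and the table does not separate its alleles. The 4 Y-linked genes read had 5453 reads between them in the E14 library and 0 in the other. Mitochondrial genes took 5.17% and 9.70% of TPM, and among the 11578 genes that reached a TPM of 10 in either library the median log2 ratio (E14-Sox2TA/WT over E14, with 1 added to each TPM) was -0.18. With FPKM, which lacks the rescaling to a fixed sum, that median was 0.01. The tissue label was checked against markers: neural, muscle, endodermal, endothelial and macrophage markers were detected in both libraries, while among the 5 cartilage markers only Col2a1 and Sox9 passed a TPM of 10.

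Genes were called lower or higher when the ratio of TPM was beyond 2-fold and TPM reached 10 in either library, the filter described in the study's methods. All 10 genes passed the filter in both libraries and were called lower, and 0 were called higher. Among all 11578 genes tested, 18.7% (2167) were called lower and 10.8% (1253) higher. The study reported fewer genes in each direction for its teratomas, so its counts were not reproduced by this filter. At a threshold of 3-fold, 9 of the 10 were lower, against 8.77% of all genes, and Stmn1 was the exception. With the ratio of FPKM, all 10 were again beyond 2-fold lower, against 14.3% of all genes. The median log2 ratio of the 10 genes was -2.19 (95% order-statistic interval -2.73 to -1.89), beside the -0.18 of all genes tested. That interval only describes the spread among the 10 genes, which were chosen and not drawn at random. The genes are not replicates of a group, so it says nothing on differences between tumors. Intervals given below for single genes are 95% Clopper-Pearson intervals from the read counts and cover counting error only. They do not cover differences between tumors. They can also be too narrow, since PCR copies were not told from separate molecules.

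**Figure D1:**
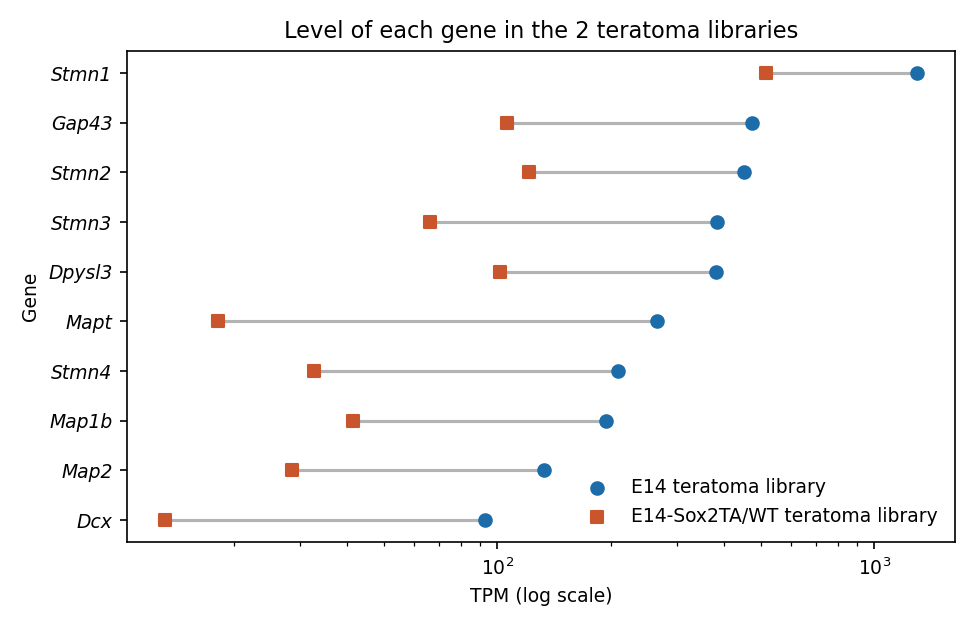
Level of each of the 10 genes in TPM (horizontal axis, log scale) in the E14 teratoma library (circles) and the E14-Sox2TA/WT teratoma library (squares), 1 library each, joined by a line. Every square lies to the left of its circle, from 515 against 1298 for Stmn1 to 18.2 against 265 for Mapt.

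Mapt encodes tau, an axonal protein that binds along microtubules, and it had the largest difference of the 10. It lies on chr11:104229409-104332090 (plus strand). Its TPM was 265 in the E14 library, from 32480 reads, against 18.2 in the E14-Sox2TA/WT library, from 2500 reads. It was 14.6-fold lower (13.97 to 15.16), and 18 of the 11578 genes tested, or 0.155%, had a lower log2 ratio. Among the 10 genes it went from the 6th place by level in the E14 library to the 9th in the E14-Sox2TA/WT library.

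Map2, the MAP of dendrites and cell bodies, lies on chr1:66175202-66442583 (plus strand). Its TPM was 133 in the E14 library against 28.6 in the E14-Sox2TA/WT library, a 4.66-fold difference (4.54 to 4.78). Map1b, which is made early in axon growth, lies on chr13:99421464-99516602 (minus strand). Its TPM was 194 and 41.4, 4.69-fold lower (4.60 to 4.78). On the TPM scale Map1b and Map2 thus differed from each other by less than counting error, with a ratio of their fold differences of 1.01 (0.976 to 1.04). This closeness depended on the scaling. With read counts per library total the log2 ratio was -2.10 for Map2 and -2.00 for Map1b, so Map2 had the larger difference. Mapt was lower by 3.13 times as much as Map2 (2.98 to 3.28). The 3 structural MAPs thus did not differ between these libraries by one common factor.

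Dcx encodes doublecortin, a marker of migrating and newly formed neurons, and lies on chrX:143855842-143933396 (minus strand). It was the lowest of the 10 in both libraries, with a TPM of 92.9 in the E14 library against 13.1 in the E14-Sox2TA/WT library. The difference, 7.07-fold (6.81 to 7.34), was second to that of Mapt. Only 122 of the genes tested, or 1.05%, had a lower log2 ratio.

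**Figure D2:**
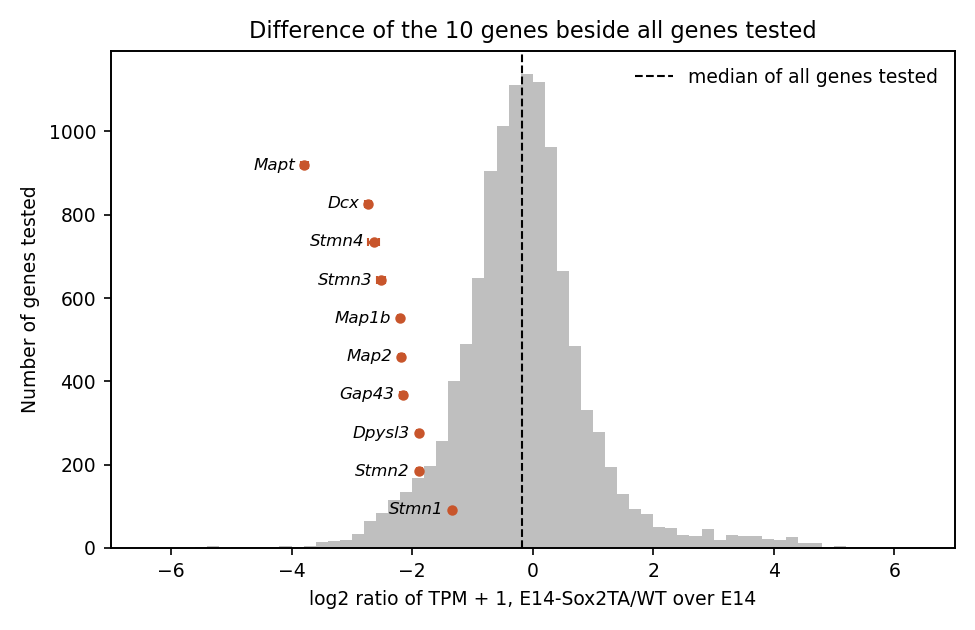
Gray bars count the 11578 genes tested by their log2 ratio of TPM + 1 (horizontal axis, E14-Sox2TA/WT over E14), and the dashed line is their median, -0.18. Points are the 10 genes with 95% counting intervals, stacked in order of their ratio with no meaning to their height. All 10 lie to the left of the median, Mapt at -3.79 and Stmn1 at -1.33.

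The stathmins differed among themselves. Stmn1, the founding member, is also made in dividing cells outside the nervous system, whereas Stmn2 (SCG10), Stmn3 (SCLIP) and Stmn4 (RB3) are largely neuronal and are held at membranes. Stmn1, on chr4:134468320-134473843 (plus strand), was the highest of the 10 genes in both libraries. Its TPM was 1298 in the E14 library against 515 in the E14-Sox2TA/WT library, a 2.52-fold difference (2.47 to 2.57), the smallest of the 10.

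Stmn2, on chr3:8509527-8561604 (plus strand), had a TPM of 451 and 121 in the same order of libraries, 3.72-fold lower (3.61 to 3.82). Stmn3, on chr2:181306459-181314500 (minus strand), had a TPM of 383 and 66.4, 5.78-fold lower (5.51 to 6.06). Stmn4, on chr14:66344210-66361680 (plus strand), had a TPM of 209 and 32.8, 6.38-fold lower (6.003 to 6.792). The 3 largely neuronal paralogs were thus each further from their E14 level than Stmn1. Relative to Stmn1, the difference was 1.47 times as large for Stmn2 (1.42 to 1.53), 2.29 times for Stmn3 (2.18 to 2.41) and 2.53 times for Stmn4 (2.37 to 2.70).

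These unequal differences changed the makeup of the family, a quantity that does not depend on how the libraries are scaled. Stmn1 made up 55.4% of the summed TPM of the 4 stathmins in the E14 library against 70.0% in the E14-Sox2TA/WT library. Stmn3 went from 16.4% to 9.03% and Stmn4 from 8.93% to 4.46%, while Stmn2 went from 19.3% to 16.5%. The order of the 4 by level, Stmn1, Stmn2, Stmn3 and Stmn4, was the same in both libraries.

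**Figure D3:**
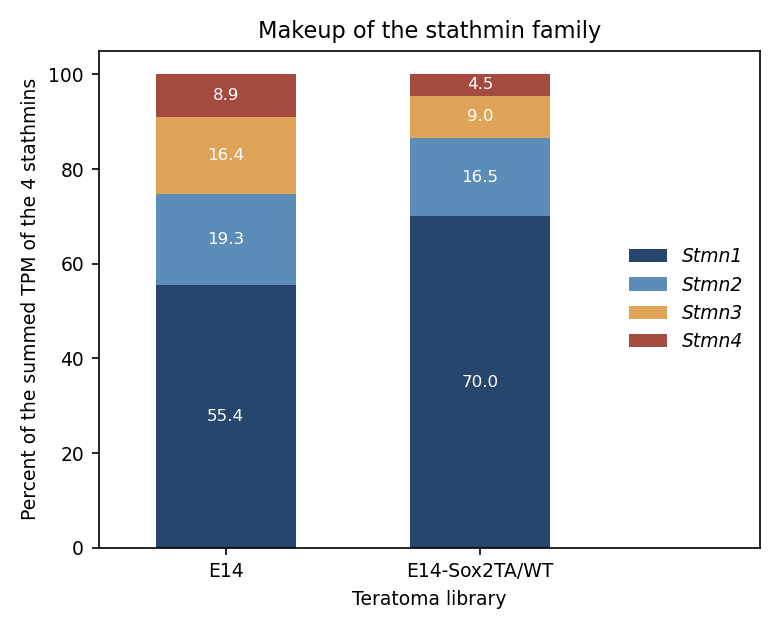
Percent of the summed TPM of the 4 stathmins (vertical axis) that each gene contributed in the E14 and E14-Sox2TA/WT teratoma libraries, 1 library each. The Stmn1 segment grows from 55.4% to 70.0% and the Stmn3 and Stmn4 segments shrink.

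Markers of dividing cells were read beside Stmn1. Of 8 such genes, 1 was called lower and 0 higher, and their summed TPM was 716 in the E14 library against 839 in the E14-Sox2TA/WT library. Top2a, a topoisomerase of dividing cells, stood at 155 and 153, and Birc5, which encodes survivin, at 115 and 173. The gene called lower was Mki67, at 137 and 54.7, which was singled out after its values were seen. Their part in the level of Stmn1 was not tested.

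Gap43 encodes a membrane-bound protein of the growth cone cortex that is abundant during axon growth. It lies on chr16:42248552-42340651 (minus strand). Its TPM was 474 in the E14 library, the second highest of the 10 genes, and 106 in the E14-Sox2TA/WT library, the third highest. It was 4.47-fold lower (4.31 to 4.63). On the TPM scale, this difference could not be told from that of Map2 by counting error (ratio of fold differences 1.04, 0.997 to 1.09). Dpysl3 encodes CRMP4, a growth cone protein of the CRMP family, and lies on chr18:43320979-43438286 (minus strand). Its TPM was 380 and 102, 3.74-fold lower (3.67 to 3.81), which was within counting error of Stmn2 (1.01, 0.973 to 1.04). With the 10 genes ordered by fold difference of TPM, 3 of the 9 neighboring pairs were this close, namely Map1b and Map2, Map2 and Gap43, and Dpysl3 and Stmn2. The pairs with Map2 were further apart in read counts per library total. There the log2 ratios were -2.10 for Map2, -2.00 for Map1b and -1.95 for Gap43, beside -1.69 for Dpysl3 and -1.68 for Stmn2.

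Other genes of the same cytoskeletal systems were read from 5 lists with 83 genes, of which 73 passed the filter. Of these, 47 were called lower, or 64.4%, and 1 was called higher, beside 18.7% and 10.8% of all genes. The filter takes a gene through either library, here and for all genes. Some of the 47, such as Gprin1 and Map7d2, reached it in the E14 library only. The gene called higher, Map7, reached it in the E14-Sox2TA/WT library only. The lists too were chosen with earlier results of these data known, so their shares are descriptive only. The medians of the 5 lists lay between -1.83 and -1.03 on the log2 scale, against -2.19 for the 10 genes.

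Among other MAPs and doublecortin kinases, 7 of 11 genes were lower and 1 was higher, with a median log2 ratio of -1.78. Dclk2, a kinase with doublecortin domains, had a TPM of 75.1 and 12.9, 5.81-fold lower (5.51 to 6.13), and Map7d2 had 31.5 and 6.53. The 3 genes with the highest mean TPM on this list were within 2-fold. Tppp3, a tubulin polymerization-promoting protein, stood at 400 and 296, Map4, the MAP of most non-neuronal cells, at 112 and 61.4, and Map7d1 at 94.3 and 48.8. The gene called higher was Map7, an epithelial MAP, at 5.58 and 12.7, which was singled out after its values were seen.

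Among other CRMPs and proteins of the growth cone cortex, 8 of 13 genes were lower and 0 higher, with a median of -1.83. Gprin1, which binds G proteins in growth cones, had a TPM of 50.4 and 4.26, 11.8-fold lower (10.8 to 13.0), and Ablim3, an actin-binding protein, had 39.4 and 4.16. The other CRMPs, singled out after their values were seen, were lower by 5.24-fold (Dpysl5), 4.72-fold (Crmp1), 3.09-fold (Dpysl4) and 1.84-fold (Dpysl2). The 3 genes of this list with the highest mean TPM differed far less than Gap43. Marcksl1 stood at 1379 and 814, Basp1 at 409 and 316 and Marcks at 328 and 274, all within 2-fold. These 3 encode membrane-bound proteins that, like GAP-43, act on cortical actin, and all are also made outside neurons.

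Among proteins that bind microtubule ends or sever microtubules, 13 of 19 genes were lower and 0 higher, with a median of -1.21. The largest differences were those of Clip2, a plus-end protein, with a TPM of 53.2 and 11.1, and Nav3, with 10.1 and 2.22. Clip3 was also lower, at 124 and 35.7, as was the end-binding gene Mapre2, at 97.3 and 40.0. Ckap5, a microtubule polymerase that is also used in mitosis, was within 2-fold at 99.6 and 52.8.

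Among axonal motors and their adaptors, 11 of 17 genes were lower and 0 higher, with a median of -1.35. Kif1a, the motor of synaptic vesicle precursors, had a TPM of 102 and 11.0, 9.29-fold lower (8.91 to 9.69), and Kif21b had 52.3 and 5.88. Klc1, a kinesin light chain, was 2.96-fold lower at 207 and 69.9. Dync1i2, a dynein intermediate chain, at 167 and 117, and Pafah1b1 (LIS1), a dynein regulator, at 95.6 and 81.1, were within 2-fold.

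Among kinases that phosphorylate these proteins, with their activators, 8 of 13 genes were lower and 0 higher, with a median of -1.03. Cdk5r1, which encodes the neuronal Cdk5 activator p35, had a TPM of 95.5 and 7.99, 11.9-fold lower (11.2 to 12.8). Cdk5r2, which encodes the related activator p39, had 32.7 and 5.31. Gsk3a, a tau kinase of most tissues, at 110 and 69.0, and Mark3, at 80.6 and 63.5, were within 2-fold.

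**Figure D4:**
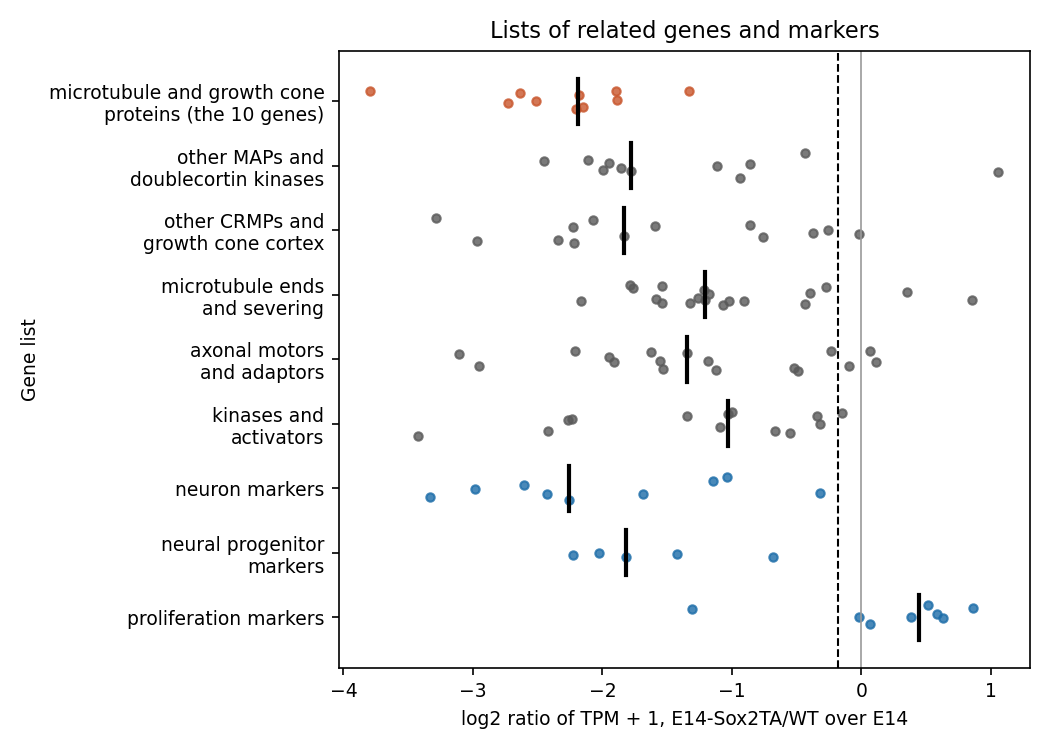
Log2 ratio of TPM + 1 (horizontal axis, E14-Sox2TA/WT over E14) of every gene that passed the filter, by list (vertical axis). Each point is 1 gene, the short bar is the median of its list, and the dashed line is the median of all genes tested. The 10 genes have a median of -2.19, the neuron markers of -2.26 and the proliferation markers of 0.45.

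Markers of neurons, neural progenitors and the oligodendrocyte lineage were mostly lower, like the 10 genes, while those of some other cell types were higher. Of 9 neuron markers, 8 were lower, with a summed TPM of 2278 in the E14 library against 320 in the E14-Sox2TA/WT library and a median log2 ratio of -2.26. None was at 0. Tubb3, the neuronal beta-tubulin, had a TPM of 1722 and 170, the synaptic vesicle gene Syt1 had 50.8 and 5.53, and Ina, a neuronal intermediate filament gene, had 205 and 32.8. The RNA-binding protein gene Elavl3 had 87.8 and 15.5 and Rbfox3 (NeuN) had 12.6 and 1.86. Snap25, at 51.2 and 15.2, Elavl4, at 45.6 and 20.1, and Nefl, at 71.6 and 34.3, were lower by smaller factors, and Nefm, at 30.9 and 24.5, was within 2-fold. The fold differences of the 10 genes, 2.52 to 14.6, and of the neuron markers, 1.26 to 10.1, overlapped over most of their range.

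Of 6 neural progenitor markers, 5 passed the filter and 4 of these were lower, with a summed TPM of 2868 and 850 over all 6. Fabp7, a radial glia gene, had a TPM of 2497 and 708, Msi1 had 176 and 65.2, Hes5 had 52.8 and 12.2 and Sox1 had 48.3 and 9.55. Nes was within 2-fold at 83.8 and 51.8, and Pax6, at 9.72 and 2.62, did not pass the filter. Astrocyte markers summed to 534 and 203, with 3 of 6 lower, and markers of the oligodendrocyte lineage to 320 and 95.4, with 5 of 6 lower.

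Outside the neural lineages, the 6 pluripotency markers were all higher, with a summed TPM of 70.2 and 1777. Endodermal markers summed to 343 and 1075, with 3 of 6 higher and 0 lower, and macrophage markers to 677 and 1259, with 1 of 5 higher and 0 lower. Muscle markers summed to 97.0 and 52.1, with 2 of 4 lower, and endothelial markers to 81.6 and 86.8, with 0 of 3 called. The part of these cell types in the levels of the 10 genes was not tested.

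Transcript length moved with the ratio across all genes. When the genes tested were put into 10 classes of equal number by the length that their reads and FPKM imply, the median log2 ratio went from 0.32 in the shortest class, up to 1060 nt, to -0.66 in the longest, above 6839 nt. Dcx, Map2 and Map1b, at 10022, 11194 and 13160 nt, were in the longest class. Relative to the median of their own class, their log2 ratios were -2.08, -1.52 and -1.55. Mapt and Dpysl3 were in the next class and stood at -3.31 and -1.41 on this relative scale. The shorter genes stood at -2.70 for Stmn4, -2.57 for Stmn3, -2.21 for Gap43, -1.79 for Stmn2 and -1.39 for Stmn1. Part of the shift from the unadjusted scale is the median of all genes tested, -0.18. With that median added back, Stmn1, Stmn2, Stmn3, Stmn4 and Gap43 lay further from 0 than unadjusted, Stmn4 at -2.88 against -2.64. The other genes lay nearer to it, Map2 at -1.71 against -2.18. All 10 genes thus lay below the median of their length class, and Stmn4 and Stmn3, instead of Dcx, came next after Mapt.

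**Figure D5:**
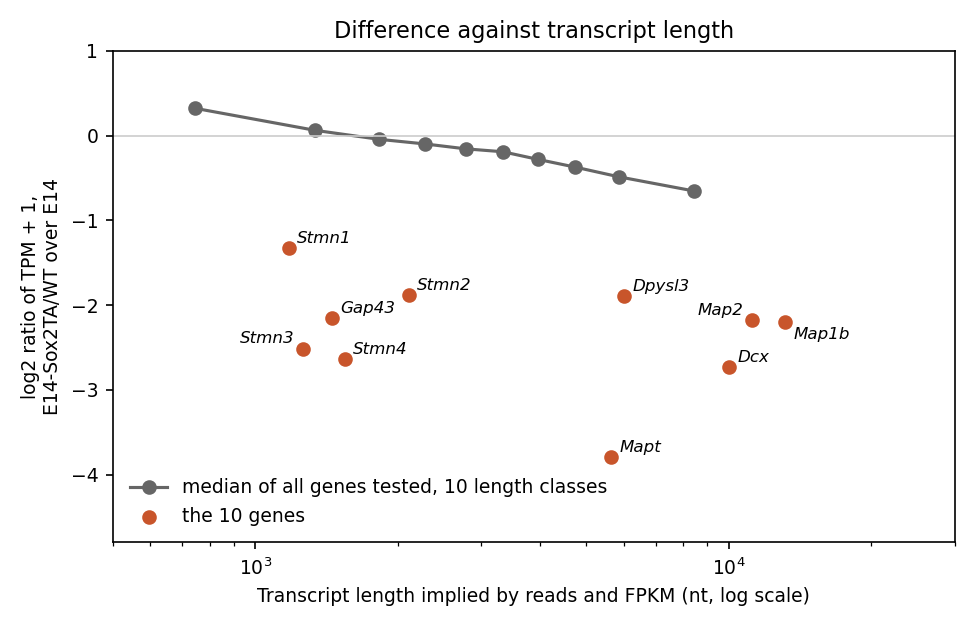
Log2 ratio of TPM + 1 (vertical axis, E14-Sox2TA/WT over E14) against the transcript length implied by reads and FPKM (horizontal axis, log scale). Gray points are the medians of all genes tested in 10 length classes, which go from 0.32 to -0.66, and the other points are the 10 genes, all of them below the gray line.

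Genes next to the 10 on their chromosomes were read for comparison. Within 1 Mb on either side, 120 other genes passed the filter, of which 29 (24.2%) were called lower and 14 (11.7%) higher, near the 18.7% and 10.8% of all genes tested. For Map1b the 9 neighboring genes had a median log2 ratio of 0.18, for Dpysl3 the 8 neighbors stood at 0.19, for Stmn2 the 6 neighbors at 0.05 and for Stmn1 the 30 neighbors at 0.01. Neighbors of the other genes had negative medians, from -0.39 over 10 genes for Mapt to -0.79 over 3 for Dcx and -1.41 over 2 for Gap43. For 5 of the 10 genes, no neighbor had a lower log2 ratio than the gene itself, and for the other 5 there was 1 such neighbor each.

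Promoter sequence was available in the RefSeq table for 4 of the 10 genes (GRCm38.p6), namely Map2, Stmn3, Map1b and Dcx, with 2 start sites for Dcx. Bases that lie before the RefSeq gene and in no exon of the GENCODE M21 basic annotation are printed for 3 of them, since genes that were lower together had start regions of different base composition. The stretch for Map2 lies on chr1:66175079-66175201 (plus strand), that for Stmn3 on chr2:181314501-181314750 (minus) and that for Dcx on chrX:143933397-143933469 (minus). Capitals mark the motifs searched on both strands.
Map2: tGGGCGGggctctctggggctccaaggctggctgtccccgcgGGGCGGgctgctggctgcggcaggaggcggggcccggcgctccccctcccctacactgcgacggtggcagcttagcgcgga
Stmn3: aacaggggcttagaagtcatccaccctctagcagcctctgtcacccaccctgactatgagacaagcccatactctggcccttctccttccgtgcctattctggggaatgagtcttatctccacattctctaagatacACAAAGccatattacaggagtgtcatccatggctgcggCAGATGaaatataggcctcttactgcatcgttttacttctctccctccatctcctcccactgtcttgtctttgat
Dcx: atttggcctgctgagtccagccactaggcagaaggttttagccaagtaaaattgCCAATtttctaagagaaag

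The letters were counted over the whole window of 250 bases before each listed start. Of these, 127 bases for Map2 and 177 for the first Dcx start lie inside the RefSeq gene, downstream of its outermost start. The window of the second Dcx start lies wholly inside the gene. For Map1b, 224 of the 250 bases lie in GENCODE exons. The bases after its listed start were not found near the start of any GENCODE transcript of the gene. G and C made up 81.2% for Map2, 66.4% for Map1b, 48.8% for Stmn3, 41.6% for the first Dcx start and 44.8% for the second. The CpG dinucleotides numbered 34, 19, 3, 3 and 3 in the same order. The medians over all 32851 windows were 52.4% and 6. The GC box (GGGCGG) was found in the windows of Map2 and Map1b and in 32.7% of all windows. The Sox-type letters ACAAAG were found in the windows of Stmn3 and the second Dcx start and in 16.5% of all windows. ACAATG, another Sox-type motif, was in none of the 5 windows and in 10.7% of all. The E-box CAGATG was in the windows of Stmn3 and Map1b and in 14.4% of all, while CAGCTG was in 0 of the 5 and 13.0% of all. The TATA box (TATAAA) was in the Map1b window and both Dcx windows, against 12.4% of all. The Dcx windows overlap, and their TATA box is the same site read in both. The CCAAT box was in the window of the first Dcx start, against 33.8% of all, and the octamer (ATGCAAAT) was in 0 of the 5 and 1.60% of all. No motif searched was found in every window.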

How the data were processed

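Poly(A) RNA of 1 teratoma library per group was sequenced on an Illumina NovaSeq instrument. The labels name bcl2fastq 2.20.0, Trimmomatic, HISAT2 2.1.0 and StringTie 2.1.3b, without their order, and 2 builds, mm10 of mouse and hg19 of human, with no role given for either. The counting tool and strand setting are not given in the sources used here. The authors deposited raw read counts, TPM and FPKM (both scaled for length and depth) per gene, all of which were used. The extraction protocol names an ESC line as the RNA source, although the tissue label is teratoma.

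Ratios of the deposited TPM were taken over all genes. Counting intervals came from read counts, at the depths given above, and intervals for the ratio of 2 fold differences were taken on the log scale with a normal approximation. No test was run. The 10 genes and all lists were chosen with earlier results of these data known. Genes named from the lists were the 3 with the highest mean TPM and the 2 with the largest log2 ratio among those that passed the filter, all neuron and neural progenitor markers, and for other marker lists the 2 with the highest mean TPM, of which only some are printed. Gene positions are from RefSeq (GRCm38.p6), which held 45679 of the 45777 identifiers, and exons and coding sequences from GENCODE M21 on the same build, with 1 principal transcript per gene. Transcript length was computed from counts and FPKM. Alternatives covered the scaling (FPKM, library totals, edgeR's TMM factors, median-of-ratios size factors, TPM without mitochondrial and hemoglobin genes), transcript length, the pseudocount, centring, the TPM filter, the fold threshold and counting error. The ratio script was tested on simulated data. The tools were R 4.3.3 with edgeR 4.0.16, and Python 3.11.15 with Biopython 1.88, scipy 1.17.1, pandas 2.3.3 and numpy 2.4.6.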

Additional observations from a re-analysis of the deposited data

How the results depend on the processing

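No paired analysis was possible because each group has 1 library, and for the same reason no library could be left out. For the main results 63 alternative values were computed, and 58 of them lay inside the interval or, for counts, within 1.5 times. All 10 genes were beyond 2-fold lower in every scaling and with the whole counting interval, and 9 were beyond 3-fold. A lower TPM filter, no filter or a threshold of 1.5-fold could only return all 10. Those alternatives are among the 58, although their outcome was fixed in advance. Their median log2 ratio ranged from -2.22 to -1.99. Among the 83 genes of the 5 related lists, a threshold of 3-fold left 30 lower and 0 higher, since fewer genes pass a higher threshold. The count of higher genes, 1 in the report, was 2 with FPKM, 2 with read counts per library total and 2 at 1.5-fold, the second gene being Fignl1 each time. For single genes, 69 of 80 alternatives fell outside counting error and 0 changed sign. Depth limits little here, since the lowest count among the 10 genes was 1199 reads, but differences between tumors are not covered by any interval.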

Other observations

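Markers of peripheral and catecholaminergic neurons were also read. Their summed TPM was 39.3 for E14 against 49.0 for E14-Sox2TA/WT, and 2 of the 7 passed the filter. Prph, which encodes the intermediate filament peripherin of peripheral neurons, had a TPM of 5.67 and 23.0, 4.07-fold higher (3.54 to 4.69, counting error only). Isl1, a transcription factor of sensory and motor neurons, had 19.7 and 7.04. Schwann cell markers summed to 47.1 and 66.3, with 1 of 5 past the filter and 0 called.

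Of the 5 cartilage markers, 4 had a higher level in the E14-Sox2TA/WT library, 3 of them at low counts. Col2a1, the main collagen gene of cartilage, had a TPM of 58.0 and 74.8, within 2-fold. Acan, which encodes aggrecan, had 47 and 207 reads, Matn1 had 0 and 46, and Comp had 11 and 49, all at a TPM of 1.01 or less. Sox9, a transcription factor of cartilage and also of neural progenitors, went the other way at 44.1 and 16.9. The summed TPM of the 5, 103 and 94.3, thus was lower in the E14-Sox2TA/WT library through Sox9 alone.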
